A study of Homo sapiens with 4 samples.

Results

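The genes described here build the TGF-β and BMP signalling pathways: secreted ligands, their receptors, the SMAD proteins that carry the signal to the nucleus, inhibitors at each step, and the ID genes that BMP signals switch on. They were chosen by symbol as a list of 42 genes. Of these, 41 were measured, by 121 probe sets that name 1 gene each, among 19583 genes and 39464 such probe sets in all. BMPR1A was not analysed here. The question was whether expression of the ETS transcription factor ERG changes this pathway in LNCaP, an androgen-responsive line of human prostate tumor cells. RNA was taken from cells that had received an ERG-RFP lentivirus, RFP being a red fluorescent protein, (LNCaP-ERG) or an RFP lentivirus (LNCaP-vector), plated the day before in ordinary medium. No TGF-β or BMP ligand is named as a treatment of either group. There were 2 Affymetrix arrays per group. The sources used here do not say whether the 2 came from separate transductions or cultures, so a p-value here reflects array-to-array spread alone, and that spread may be technical. In such bulk RNA, fewer expressing cells and less RNA per cell cannot be told apart.

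TGF-β family ligands are secreted as dimers. TGF-β itself leaves the cell in a latent form held by LTBP proteins. An active ligand joins type 2 receptors to type 1 receptors, which phosphorylate SMAD2 and SMAD3 after TGF-β or activin, and SMAD1 and SMAD5 after BMP. These join SMAD4 and bind DNA with cofactors and corepressors, while SMAD6, SMAD7 and the SMURF ubiquitin ligases shut the pathway down. In the prostate, TGF-β is known for holding back the growth of normal epithelium, and many prostate cancers lose that response.

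All values are log2 probe set intensities, and each gene is read from its brightest probe set, by the mean of the 4 arrays. Probe sets differ in brightness for reasons other than RNA level, so levels are compared between groups and never between genes. The exception is a common mark for dim signal: 33 genes of other organs, unlikely in prostate cells, had a median of 3.18 and a 95th percentile of 5.28, and a gene with both group means below that percentile is called dim. The 9 measured luminal prostate markers, KLK3 and HOXB13 among them, were all above it. Of the markers of other cell types, 0 of 4 basal, 1 of 8 fibroblast and smooth muscle (ACTA2), 1 of 5 endothelial (VWF) and 0 of 5 leukocyte genes were above it. ERG itself did not check the labels: its 4 probe sets were dim in every array, with log2 fold changes of -0.24 to 0.12, and it is not known here if these probes match the ERG of the lentivirus. Arrays of one group differed by an SD of 0.18 to 0.19 over all genes, and arrays of different groups by 0.19 to 0.24.

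None of the 41 genes passed an adjusted p of 0.05 in limma's test, in either direction. Over all genes the same test called 2, or 0.0102%, with 1 in each direction (0.00511% each). At an unadjusted p under 0.05 there were 2 of the 41, BMPR1B lower and ID4 higher in LNCaP-ERG, against a background of 9.71% of all genes. That is 4.88% of the pathway genes. By the methods' t-test at the same unadjusted threshold there were also 2, ID4 higher and TGFB2 lower, where that test gave 8.14% of all genes, and none after Benjamini-Hochberg adjustment. TGFB2 was dim, and its log2 fold change was only -0.023, with SDs of 0.0028 in LNCaP-ERG and 0.0057 in LNCaP-vector. Its unadjusted p by limma was 0.77. Over the 41 genes, the log2 fold changes ran from -0.28 to 0.32, with 21 above 0 and 20 below. Their median was 0.0039, beside 0.0078 for all genes. The median size without sign was 0.12, beside 0.091 for all genes.

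The precision of these arrays sets a bound on the difference between them at the probe set used for each gene. Since the spread of the arrays may be technical, it is not a bound for separate cultures of the cells. The 95% intervals from limma, which are not adjusted for the number of genes, lay within a 2-fold change in either direction for 41 of 41 genes and within a log2 fold change of 0.5 for 33. Over all 19583 genes they lay within 2-fold for 19472 and within 0.5 for 15921. Narrow intervals are therefore general to these arrays and not particular to the pathway. The 8 of the 41 whose intervals reached past 0.5 were TGFB1, BMP2, INHBB, BMPR1B, NOG, LTBP1, SMAD4 and ID1. Of these TGFB1, BMP2, NOG, LTBP1 and ID1 were dim. The BMPR1B interval, -0.501 to -0.067, was not a wide one. Its SE (standard error) was 0.086, beside a median of 0.098 for the 41 genes, and it passed -0.5 because its log2 fold change was -0.28. For a dim gene the interval bounds the change in the measured signal, not that of the RNA.

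**Figure D1:**
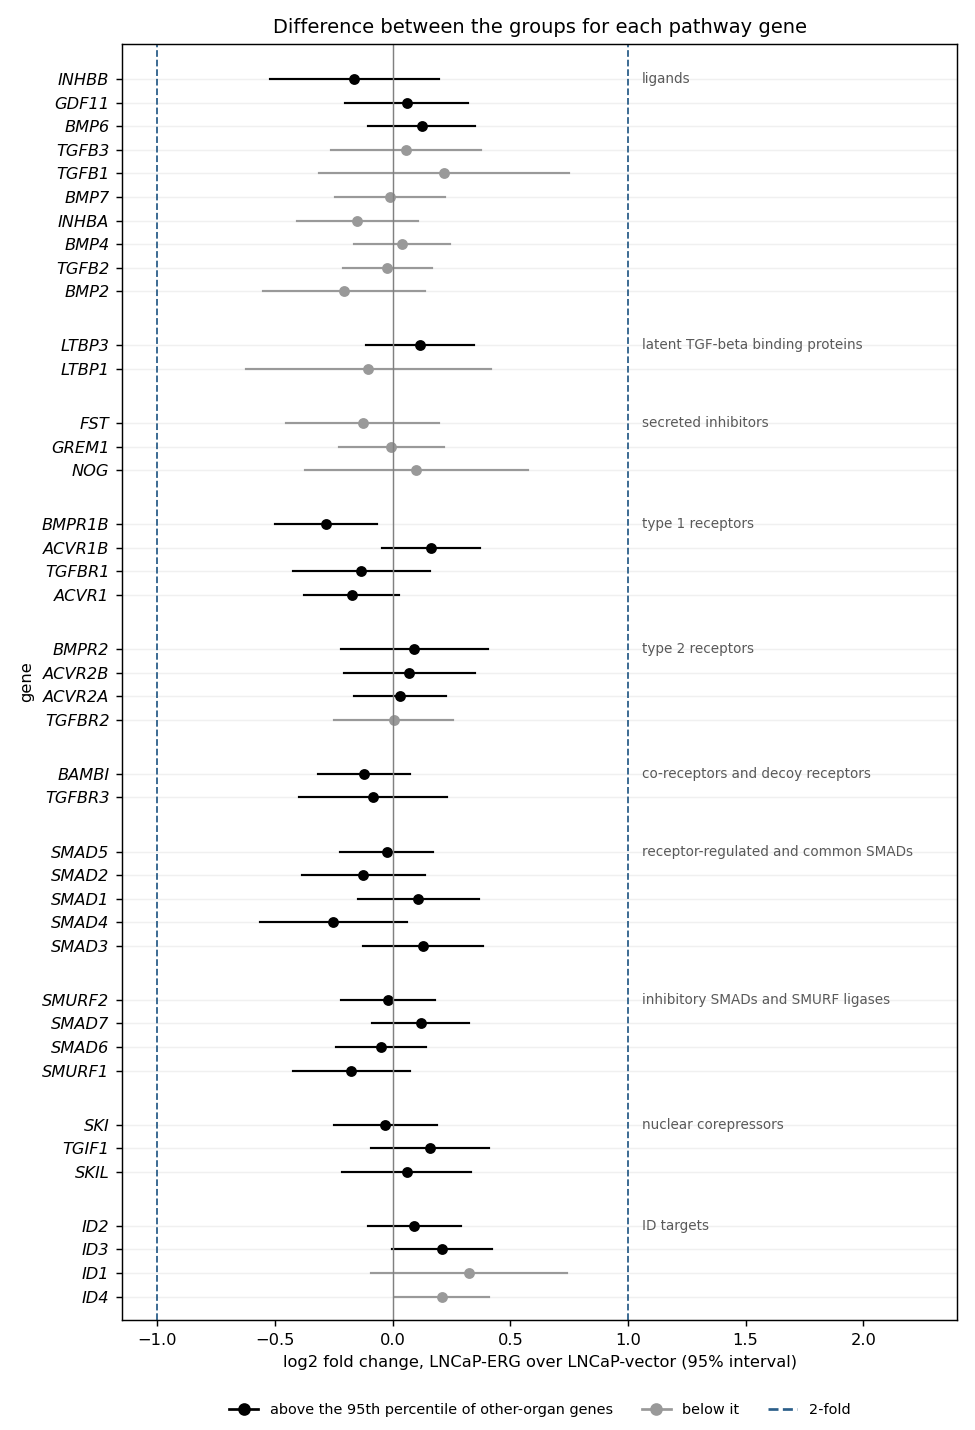
Log2 fold change of LNCaP-ERG over LNCaP-vector (x axis) for the 41 measured genes (y axis, by role), with 95% intervals from limma as horizontal lines. Black marks genes above the mark for dim signal in both groups, grey the others, and dashed lines a 2-fold change. Every interval lies between the dashed lines, and those of BMPR1B and ID4 leave out 0.

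The groups did not overlap for 17 of the 41 genes, where both arrays of one group lay above both of the other: 10 higher (background 21.7%) and 7 lower (background 19.1%) in LNCaP-ERG. This is 41.5%, against 40.9% of all genes. Among the 27 pathway genes above the mark for dim signal there were 14, or 51.9%, against 47.7% of all genes above it. These shares lie close to the background.

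Of the 10 ligands, 7 were dim in both groups: TGFB1, TGFB2 and TGFB3, the BMP genes BMP2, BMP4 and BMP7, and INHBA, the activin A subunit. INHBB, the activin B subunit, read 7.27 and 6.92 in the arrays of LNCaP-ERG and 7.35 and 7.18 in those of LNCaP-vector. These ranges overlapped, and the log2 fold change of -0.16 (standard error, SE, 0.14; limma adjusted p = 0.75) was within the spread of the arrays. BMP6, a BMP made by several epithelia, and GDF11, a ligand of the activin branch, were the others above the mark, with log2 fold changes of 0.12 and 0.06. Both BMP6 values of LNCaP-ERG, 6.02 and 6.01, were above those of LNCaP-vector, 5.97 and 5.81, by less than the vector arrays differed from each other. Dim in every array, BMP2 read 2.74 and 2.99 against 2.94 and 3.21 (log2 fold change -0.21, adjusted p = 0.67), and INHBA 3.49 and 3.30 against 3.49 and 3.61 (-0.15, adjusted p = 0.68). For both genes the groups overlapped, and the second BMP2 probe set, also dim, had 0.11. TGFB1 read 4.51 in the first array of LNCaP-ERG and 3.89 in the second, on either side of both vector values.

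Of the proteins that hold latent TGF-β, LTBP3 read 9.45 and 9.29 in LNCaP-ERG and 9.24 and 9.26 in LNCaP-vector. The groups did not overlap, but the nearest values lay closer than the arrays within LNCaP-ERG, and the log2 fold change of 0.12 (SE 0.09, limma adjusted p = 0.72) did not pass. A second LTBP3 probe set above the mark had 0.19, also without overlap, and the third, dim, had 0.07 with overlap. All 3 lay above 0, and none passed. LTBP1 was dim, at a log2 fold change of -0.10. The secreted inhibitors NOG and GREM1, which trap BMPs, and FST, which traps activins, were dim in both groups. FST read 3.58 and 3.24 against 3.53 and 3.54, a log2 fold change of -0.13 (adjusted p = 0.79), and its groups overlapped. Its other probe sets, also dim, had 0.12 and -0.12. NOG and GREM1 had 0.10 and -0.0052.

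**Figure D2:**
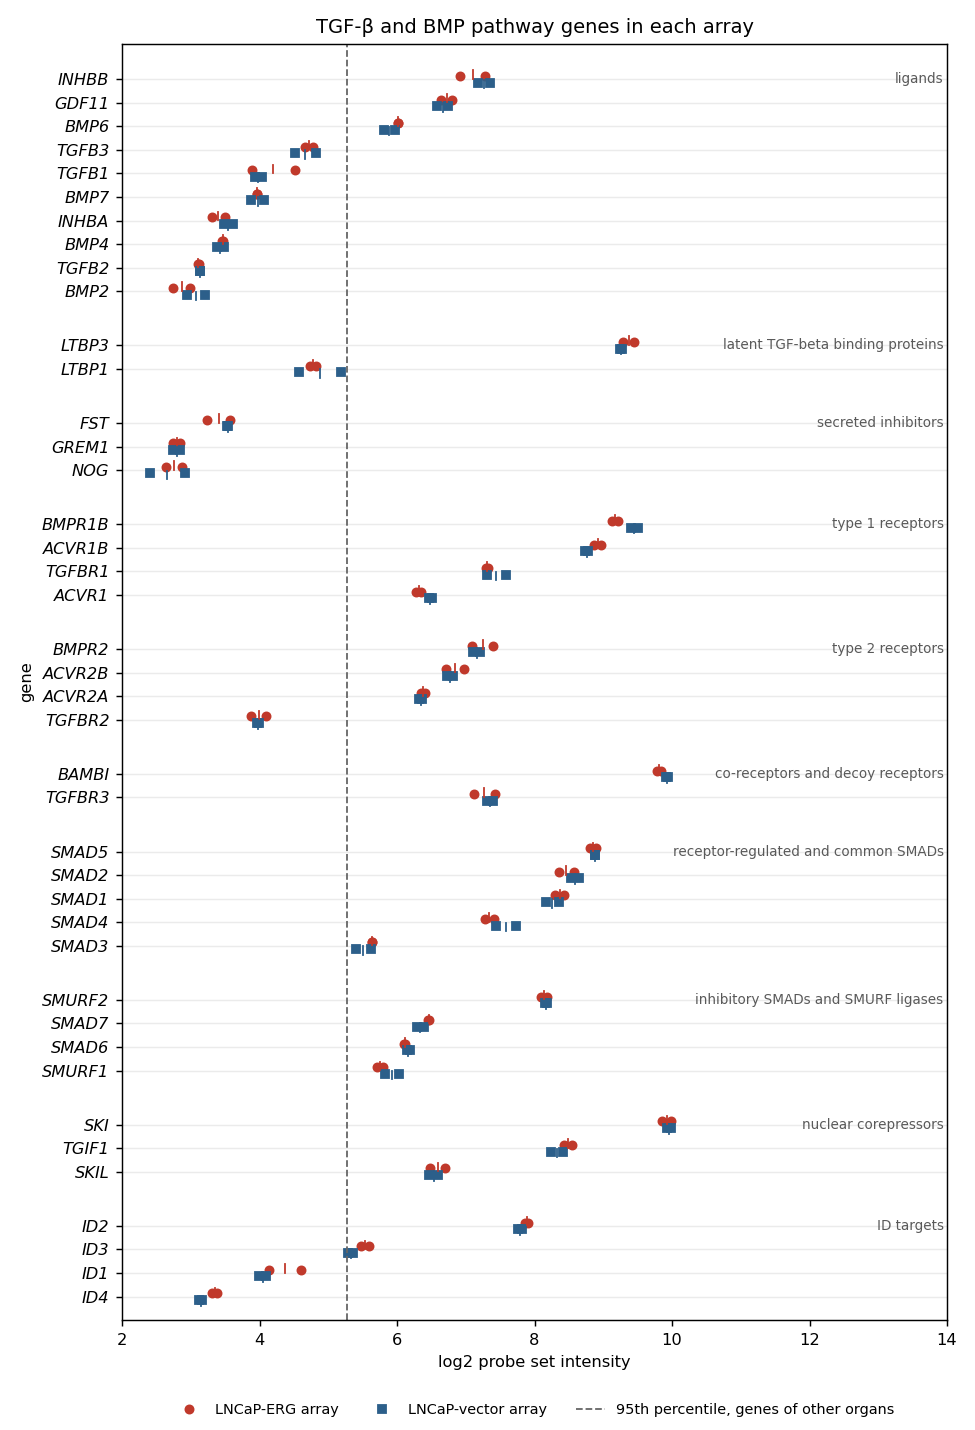
The 41 measured genes (y axis, by role) and the log2 intensity of each in every array (x axis). Circles are the 2 arrays of LNCaP-ERG, squares the 2 of LNCaP-vector, short lines the group means, with a dashed line at 5.28, the mark for dim signal. Circles and squares of a gene lie close together throughout, and 14 genes have both means left of the dashed line.

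The type 1 receptors held the gene with the smallest p. BMPR1B, a receptor for BMPs, read 9.21 and 9.12 in LNCaP-ERG and 9.40 and 9.50 in LNCaP-vector. Both arrays of LNCaP-ERG were below both vector arrays. The mean was 9.17 ± 0.07 (SD, n = 2) against 9.45 ± 0.07 (SD, n = 2), a 1.22-fold lower value with a log2 fold change of -0.28 (SE 0.09, limma adjusted p = 0.43). With single arrays left out it was between -0.34 and -0.23, where the lack of overlap fixes the sign in advance. A second BMPR1B probe set above the mark read 6.48 and 6.57 against 6.95 and 7.11, with a log2 fold change of -0.51 (adjusted p = 0.44 over all probe sets), and the third, dim in every array, had -0.16. All 3 pointed the same way, and none passed.

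ACVR1, the receptor also called ALK2 that passes BMP signals, read 6.35 and 6.27 in LNCaP-ERG and 6.51 and 6.46 in LNCaP-vector. Its groups did not overlap, and its log2 fold change was -0.17 (SE 0.08, limma adjusted p = 0.56). ACVR1B, the activin receptor, lay the other way, at 8.97 and 8.87 against 8.73 and 8.78 (log2 fold change 0.16, SE 0.08, limma adjusted p = 0.58). Of its other 5 probe sets, 4 were dim and had 0.03 to 0.13. The remaining one, above the mark in LNCaP-vector alone, had -0.20 with overlap. TGFBR1, the type 1 receptor of TGF-β, read 7.33 and 7.29 against 7.30 and 7.58, with a log2 fold change of -0.13, and its groups overlapped.

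TGFBR2, the receptor that TGF-β binds first, was dim in all 4 arrays, at 4.09 and 3.88 in LNCaP-ERG and 3.97 and 3.99 in LNCaP-vector. Its log2 fold change was 0.0039, and its groups overlapped. The other type 2 receptors were above the mark and overlapped between the groups as well. BMPR2, which serves BMPs, read 7.10 and 7.40 against 7.11 and 7.20, a log2 fold change of 0.09 (SE 0.12, limma adjusted p = 0.86). Its other 3 probe sets above the mark had 0.15, 0.01 and 0.10, and the 2 dim ones -0.05 and -0.34, the latter without overlap. The activin receptors ACVR2A and ACVR2B had 0.03 and 0.07.

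BAMBI is a receptor without a kinase that blocks the type 1 receptors. It read 9.78 and 9.83 in LNCaP-ERG and 9.95 and 9.91 in LNCaP-vector, without overlap, a log2 fold change of -0.12 (SE 0.08, limma adjusted p = 0.66). TGFBR3, the co-receptor betaglycan, overlapped between the groups, at a log2 fold change of -0.08.

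Promoter sequences of a pair of these genes are shown because BMPR1B had the smallest p and BAMBI, a decoy for such receptors, was also lower in both arrays of LNCaP-ERG. They come from RefSeq on GRCh38.p14, where 38 of the 42 genes had 75 promoters, some of them overlapping. The 250 bases before each start were searched on both strands for CAGACA, which contains the SMAD box, for GGCGCC, a GC-rich SMAD element, and for CCGGAAG, an ETS core. Capitals mark a match. BMPR1B has 3 starts in the table, and the one with most matches is shown, chr4:94995590-94995839 on the plus strand. BAMBI has 1, at chr10:28677271-28677520 on the plus strand.

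BMPR1B: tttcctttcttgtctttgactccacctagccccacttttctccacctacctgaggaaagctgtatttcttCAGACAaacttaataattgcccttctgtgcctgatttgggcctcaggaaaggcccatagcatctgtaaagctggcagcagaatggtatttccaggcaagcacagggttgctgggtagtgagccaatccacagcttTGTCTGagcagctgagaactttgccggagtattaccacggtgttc
BAMBI: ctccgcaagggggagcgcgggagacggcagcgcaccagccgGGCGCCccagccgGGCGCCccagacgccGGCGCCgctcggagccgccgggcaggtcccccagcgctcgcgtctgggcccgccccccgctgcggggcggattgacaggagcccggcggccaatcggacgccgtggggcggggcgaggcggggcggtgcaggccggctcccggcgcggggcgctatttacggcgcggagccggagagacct

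The BMPR1B window held 2 copies of CAGACA, 1 on each strand, and no GGCGCC. At the other BMPR1B starts the windows held none of the 3 motifs. The BAMBI window held 3 copies of GGCGCC and no CAGACA. More copies of GGCGCC were found in 1 window of the pathway, that of an ACVR1B start with 4. Over the pathway's promoters, CAGACA was found in 20.0% (13.6% of all 35116 promoters), GGCGCC in 20.0% (16.4% of all) and CCGGAAG in 2.67% (8.52% of all). The 2 pathway promoters with the ETS core belonged to TGFBR1 and TGIF1. The windows of the 4 ID genes held none of the 3 motifs. These are matches of letters, and the arrays do not measure binding.

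The SMADs were above the mark in all 4 arrays. SMAD4, the partner shared by both branches, read 7.27 and 7.40 in LNCaP-ERG and 7.44 and 7.74 in LNCaP-vector. The groups did not overlap, but the nearest values lay closer than the arrays within either group, and the log2 fold change of -0.25 (SE 0.12, limma adjusted p = 0.58) did not pass. The second SMAD4 probe set above the mark had -0.20, also without overlap, and the 3 dim ones lay between -0.0022 and 0.01. SMAD2 and SMAD3, of the TGF-β branch, had log2 fold changes of -0.12 and 0.13. SMAD1, of the BMP branch, had 0.11 at the probe set used and -0.11 at another above the mark.

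SMAD5, also of the BMP branch, read 8.89 and 8.81 against 8.88 and 8.88, with overlap, a log2 fold change of -0.02 (SE 0.08, limma adjusted p = 0.95). Its interval of -0.22 to 0.17 was among the narrower ones. Of its other probe sets, the bright pair had 0.01 and -0.13, and the dim pair -0.01 and -0.41. No SMAD gene therefore differed between the groups beyond the test's threshold.

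Among the inhibitors inside the cell, SMURF1 read 5.79 and 5.71 in LNCaP-ERG and 5.83 and 6.02 in LNCaP-vector, without overlap (log2 fold change -0.18, SE 0.10, limma adjusted p = 0.62). Its 4 dim probe sets ran from -0.14 to 0.36, so no direction is given for SMURF1. SMURF2 read 8.10 and 8.18 against 8.15 and 8.18, with overlap, at -0.02 (SE 0.08, limma adjusted p = 0.96), and its second bright probe set had -0.14. The 2 dim ones had -0.26 and -0.28. SMAD6 and SMAD7, the inhibitory SMADs, are themselves induced by BMP and TGF-β. SMAD7 read 6.45 and 6.46 against 6.39 and 6.29, and SMAD6 6.11 and 6.10 against 6.18 and 6.14, both without overlap and with log2 fold changes of 0.12 and -0.05. The dim SMAD6 probe sets had -0.28, -0.04 and 0.38, so no direction is given for SMAD6.

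The corepressors hold SMAD complexes inactive at DNA. TGIF1 read 8.54 and 8.44 in LNCaP-ERG and 8.24 and 8.42 in LNCaP-vector, without overlap by a margin far smaller than the spread within the vector arrays. Its log2 fold change was 0.16 (SE 0.10, limma adjusted p = 0.66), and its other probe set, dim, had -0.0093. SKI read 9.99 and 9.86 against 9.99 and 9.92, with overlap, at -0.03 (SE 0.09, limma adjusted p = 0.94). SKIL, which TGF-β signals induce, had 0.06.

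The ID genes encode helix-loop-helix proteins that block differentiation factors of the bHLH class, and they are early targets of BMP signals. At the probe set used for each, ID1, ID2, ID3 and ID4 were all higher in both arrays of LNCaP-ERG than in both vector arrays. With the arrays centred on housekeeping genes their log2 fold changes were 0.25, 0.02, 0.14 and 0.14. Over all genes, 21.7% were higher without overlap. None of the 4 passed, and the probe sets of ID2 and ID4 disagreed among themselves.

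ID3 had 1 probe set, which read 5.59 and 5.48 in LNCaP-ERG and 5.29 and 5.36 in LNCaP-vector, at 5.53 ± 0.08 against 5.33 ± 0.05 (SD, n = 2 in each group). Its log2 fold change was 0.21 (SE 0.08, limma adjusted p = 0.52), and both means lay just above the mark for dim signal. ID2 read 7.91 and 7.86 against 7.82 and 7.76 (log2 fold change 0.09, SE 0.08, limma adjusted p = 0.74). Its second probe set, also above the mark, had -0.02, and a probe set shared with its relative ID2B, left out of all counts, read 4.31 and 4.42 against 4.34 and 4.18.

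ID1 was dim, at 4.14 and 4.61 in LNCaP-ERG against 3.999 and 4.10 in LNCaP-vector. It had the highest log2 fold change of the 41 genes, 0.32 (SE 0.16, limma adjusted p = 0.59), which came mostly from the second array of LNCaP-ERG: without that array it was 0.094. ID4 was dim as well, at 3.32 and 3.38 against 3.17 and 3.12 (log2 fold change 0.21, SE 0.08, limma adjusted p = 0.50). Its other probe sets, dim too, had 0.05, -0.17 and -0.29, and the mean over all 4 had -0.049, so no direction is given for ID4.

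**Figure D3:**
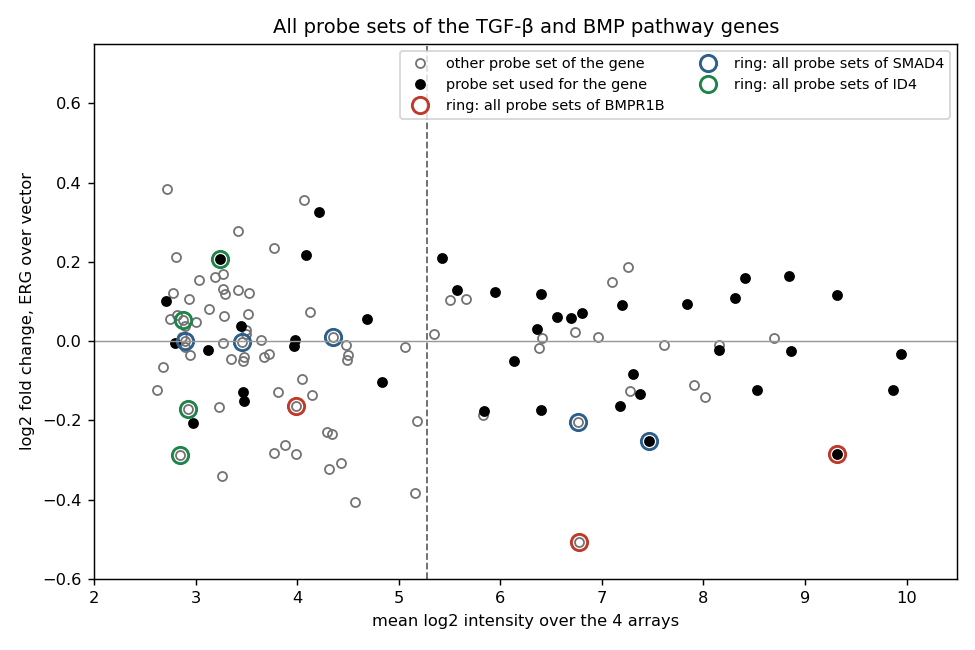
Log2 fold change of LNCaP-ERG over LNCaP-vector (y axis) against mean log2 intensity (x axis) for the 121 probe sets of the 41 genes. Filled points are the probe sets used for each gene, open points the others, rings mark all probe sets of BMPR1B, SMAD4 and ID4, with a dashed line at 5.28, the mark for dim signal. The lowest point is the second BMPR1B probe set, at -0.51, and the ID4 rings lie on both sides of 0.

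Read probe set by probe set, the pathway gave the same picture. Of the 121 probe sets, none passed with all 39464 adjusted together, which called none at all, so the background was 0%. At an unadjusted p under 0.05 there were 8, or 6.61%, against 8.7% of all probe sets, with 3 higher (background 4.3%) and 5 lower (background 4.41%). Of these 8, the pair of BMPR1B probe sets were above the mark for dim signal in both groups and the other 6 were not. A log2 fold change of 0.5 or more in size was reached by 1 of the 121, the second BMPR1B probe set, which is 0.826% against 1.03% of all probe sets.

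The pathway has further genes outside this list, and 103 of them were set down by role, of which 98 were measured. None passed over all genes by limma. At an unadjusted p under 0.05 there were 16, or 16.3% (background 9.71%), with 12 higher (background 5.61%) and 4 lower (background 4.11%). The methods' t-test gave 13, or 13.3%, at that threshold (background 8.14%), and none after adjustment. Above the mark for dim signal there were 10 of 41, or 24.4%, against 10.2% of all such genes. This list was chosen with earlier results of these data known, so shares above the background are no test of the wider pathway. The median log2 fold change of the 98 was 0.04. By role, the 16 were 3 of 20 further ligands, 0 of 10 receptors and co-receptors, 2 of 23 extracellular regulators, 5 of 23 cytoplasmic and nuclear regulators, 5 of 14 TGF-β target genes and 1 of 8 BMP target genes. The 8 with the smallest p are given here.

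PMEPA1, a membrane protein that TGF-β and androgen induce and that sequesters SMAD2 and SMAD3, read 9.38 and 9.29 in LNCaP-ERG and 9.74 and 9.69 in LNCaP-vector. It was 1.304-fold lower without overlap, a log2 fold change of -0.38 (SE 0.08, limma adjusted p = 0.33). All 3 of its probe sets, each above the mark, were lower, at -0.38, -0.35 and -0.26. PPM1A, a phosphatase that removes the activating phosphates of SMADs, read 9.35 and 9.29 against 8.83 and 8.98, without overlap. It was 1.33-fold higher (log2 fold change 0.42, SE 0.09, limma adjusted p = 0.34), and its 6 probe sets all lay above 0, from 0.18 to 0.48.

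SNAI2, a repressor of epithelial genes that TGF-β can induce, had 1 probe set, at 5.71 and 5.93 in LNCaP-ERG against 6.31 and 6.43 in LNCaP-vector. This was the lowest value of the 98 genes, a log2 fold change of -0.55 (SE 0.11, limma adjusted p = 0.32). RBL1, the pocket protein p107 that works with SMAD3 at cell cycle genes, read 5.79 and 5.83 against 6.34 and 6.18 (-0.45, adjusted p = 0.32), while its 3 dim probe sets had -0.03 to 0.10. GDF15, a distant ligand of the family that acts through another receptor and that p53 and stress induce, read 12.75 and 12.72 against 12.46 and 12.44. The groups of GDF15 did not overlap, with a log2 fold change of 0.29 (SE 0.07, limma adjusted p = 0.37). It had 1 probe set, with an x suffix, and its small spread is part of why it was picked.

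COL1A1, a fibrillar collagen chain, read 8.79 and 8.69 against 8.39 and 8.33 (log2 fold change 0.38, adjusted p = 0.35). Its second probe set above the mark had 0.32, and its 3 dim ones had -0.49 to 0.17. Of the 8 fibroblast and smooth muscle markers, ACTA2 was above the mark (log2 fold change 0.04) and 7 were dim. Among the dim ones MYH11 (0.35) and PDGFRB (0.20) were higher in both arrays of LNCaP-ERG, COL1A2 (-0.21) and DES (-0.15) lower, and COL3A1, LUM and THY1 overlapped. Their part in the COL1A1 value was not tested. MAP3K7, the kinase TAK1 of the SMAD-independent branch, read 5.57 and 5.50 against 5.20 and 5.05 (0.41, adjusted p = 0.35), while its other probe sets had 0.04, -0.01 and -0.22. It was above the mark in LNCaP-ERG alone. DAND5, an antagonist of the ligand NODAL, was dim at 3.34 and 3.30 against 3.001 and 3.04 (0.30, adjusted p = 0.37).

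**Figure D4:**
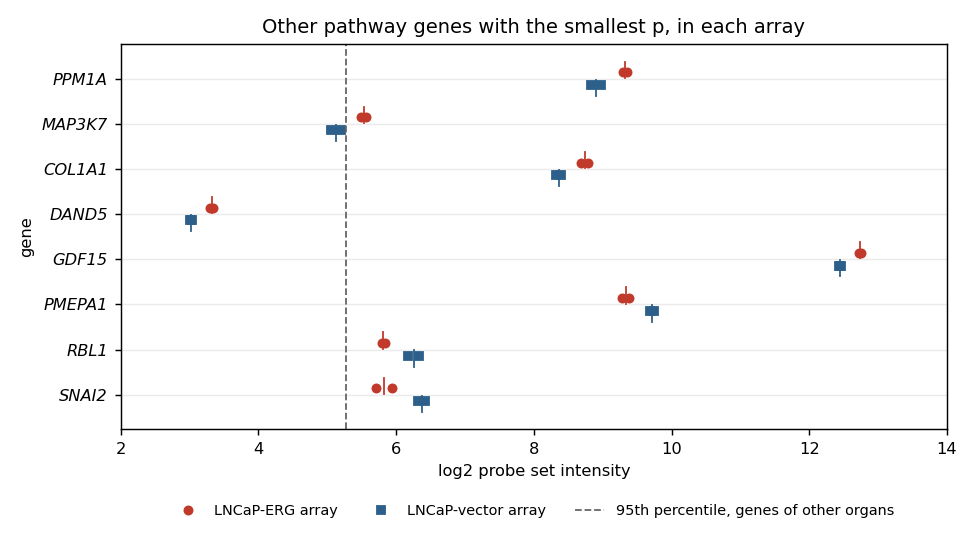
Log2 probe set intensity (x axis) in each array of the 8 further pathway genes with the smallest p (y axis, by log2 fold change from PPM1A at 0.42 to SNAI2 at -0.55). Circles are the 2 arrays of LNCaP-ERG, squares the 2 of LNCaP-vector, short lines the group means, with a dashed line at 5.28, the mark for dim signal. The groups are separate for each of these genes, which were picked for their small p.

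Under moderation that was trended and robust, GDF15 (adjusted p = 0.014) and PMEPA1 (adjusted p = 0.045) passed among these 98 genes, while still none of the 41 did. That setting called 89 of all genes, or 0.454%. Over the settings that keep all 4 arrays, the adjusted p ran from 0.014 to 0.61 for GDF15 and from 0.045 to 0.59 for PMEPA1. With single arrays left out, the log2 fold changes were 0.28 to 0.30 and -0.43 to -0.34. Since the groups of both genes did not overlap, these omissions could not change the sign.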

How the data were processed

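RNA on 2 LNCaP-ERG and 2 LNCaP-vector arrays (Affymetrix) was measured. The authors analysed images with dChip, normalized with RMAexpress and annotated with Multiexperiment Viewer, of unstated versions. The deposited numbers are intensities per probe set. Their scale is not stated; array medians (14.0 to 14.4) and maxima (14962 to 15344) were taken as linear, and log2 was applied. Of 51965 probe sets, 2 lacked a value, while 838 name several genes and 11661 none. All of these were left out.

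limma 3.58.1 (lmFit, eBayes; R 4.3.3) compared the groups with 2 residual and 3.23 prior degrees of freedom, adjusted by Benjamini-Hochberg over 19583 genes at a threshold of 0.05. The fit was run on data simulated from its own model of the spread, which checks the computation and not whether the arrays follow that model. Members and lists were chosen with earlier results of these data known. By rule, array values are given for the 12 members with the smallest p, the brightest of each role, and any that passed or had no overlap and a log2 fold change of at least 0.3 in size. Other members with array values (TGFB1, BMP6, TGFBR1, TGFBR2, SMAD6, SMAD7) were added once their values had been seen. The 8 further pathway genes with the smallest p were named. Alternatives were trended and robust moderation, no dim genes, means of probe sets, all probe sets, plain probe sets (no s, x or a suffix), renewed quantile normalization, housekeeping centring, a replicate block, the t-test of the methods, and omission of each array. Arrays have no read depth, and their number limits the precision. Plots used matplotlib 3.10.9.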

Additional observations from a re-analysis of the deposited data

How the results depend on the processing

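No pathway gene that was tested passed under the 9 alternatives that keep all 4 arrays or the 4 that leave 1 out, where 41 were tested except 27 without dim genes and 36 with plain probe sets. The further pathway genes (98, but 42 and 77 in those settings) gave 2 calls with trended and robust moderation and 0 otherwise. Over all genes the calls rose from 2 to 89 with trended and robust moderation, 54 without dim genes, 36 with housekeeping centring and 14 with means of probe sets, and were 0 with all probe sets together, the replicate block, the methods' t-test, and 0 to 0 with single arrays left out, fits with 1 array in a group that is assumed to vary like the other. The median log2 fold change of the 41 was 0.031 without dim genes (27 genes), -0.067 with housekeeping centring (all genes -0.063) and -0.026 to 0.017 with single arrays left out, the lowest without the first vector array. Of 351 values of the 28 named genes, 335 kept their sign and side of the threshold, 2 newly passed and 14 changed sign. Settings that alter only the test leave the log2 fold change as it was, so many of these signs could not change. With plain probe sets BMP2 had 0.11, FST 0.12, TGIF1 -0.0093 and ID4 -0.17. With means of probe sets BMPR2 had -0.0063, SMURF1 0.039 and ID4 -0.049. With single arrays left out, INHBB ran from -0.34 to 0.014, BMPR2 from -0.061 to 0.24, FST from -0.30 to 0.040, SMAD5 from -0.064 to 0.014, SMURF2 from -0.063 to 0.020 and SKI from -0.096 to 0.031. The causes were not tested. The 2 shared replicate numbers do not pair the samples by any label (correlation of same-numbered deviations 0.077 over genes), and the replicate block called no gene.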
